A study of Mus musculus with 22 samples.

Results

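A set of 25 promoters gained the active-promoter mark H3K4me3 in neural progenitor cells (NPC) made from mouse embryonic stem cells (ESC). These promoters were not high in the PRC2 core protein SUZ12 in ESC. PRC2 is a Polycomb complex. They are 25 of the 24467 windows of 5000 bp, each centred on the annotated transcription start site of 1 gene, in which the reads were counted. A window was taken when its H3K4me3 level was at least 40 CPM in both NPC libraries and below 15 CPM in both ESC libraries, and its SUZ12 level was below 60 CPM in both ESC libraries. CPM is the count of a window per 1000000 counts of its library, and a library averages 40.9 CPM per window. The promoters were thus selected on the H3K4me3 values of both cell types and the SUZ12 values of ESC, and those are given below as a description, without a test. The promoters came with the name Polycomb-free, but 14 of the 25 carried H3K27me3 above the IgG background in ESC. Over all 23836 windows tested 22.5% did. H3K27me3 is the mark that PRC2 lays down. The promoters are therefore called here low-SUZ12 promoters that gained H3K4me3. Low means only below the limit of 60 CPM. The median SUZ12 of the 25 in the ESC libraries was 33.8 and 29.6 CPM, against 29.1 and 31.5 CPM over all windows.

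The assay was CUT&RUN: an antibody brings a nuclease to a protein or histone mark in permeable cells, and the DNA cut loose there is sequenced. Antibodies to SUZ12, JARID2, MTF2, H3K27me3 and H3K4me3 had 2 libraries each per cell type, described as biological replicates, and IgG had 1 per cell type. All cells were C57BL/6, with the genotype given as untagged, Tir1 (the plant auxin receptor used for induced protein degradation) and the treatment as untreated. NPC were derived from the ESC with 10 ng/mL bFGF for 72 h and then 500 nM of the Hedgehog agonist SAG for 48 h. ESC were held in N2B27 medium with 100 U/mL LIF, 3 µM CHIR99021 and 1 µM PD0325901. The growth and treatment protocols name no sort of the NPC, and these are bulk samples, so a mark in more cells and more of a mark per cell cannot be told apart.

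H3K4me3 is deposited around the start sites of genes that are transcribed or poised, and promoters rich in CpG dinucleotides tend to carry it in most cell types. PRC2 methylates histone H3 at lysine 27 at silent developmental genes, most of which have CpG-rich promoters. JARID2 and MTF2 are accessory subunits of separate forms of PRC2. CpG-poor promoters are less often bound by PRC2 in ESC and are often active in few tissues, such as brain.

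Total counts over the windows ran from 3264267 to 8425292 for H3K4me3, and from 647615 to 1569812 for H3K27me3. For SUZ12 they were 448667 to 857691, for JARID2 339591 to 492529 and for MTF2 439379 to 832117. The IgG libraries had 667898 counts in NPC and 298458 in ESC. H3K4me3 separated the cell types as labelled. At Pou5f1, the gene of the pluripotency factor OCT4, it was 12.9 and 11.4 CPM in NPC and 217 and 234 CPM in ESC, and at the neural gene Sox1 it was 130.2 and 125 CPM in NPC and 51.9 and 55.0 CPM in ESC. The median over 10 NPC markers, none of them among the 25, was 129.7 and 129.3 CPM in the NPC libraries, against 36.9 and 34.1 CPM in ESC. The median over 8 neuron markers was 44.0 and 41.9 CPM in the NPC libraries, against 12.2 and 13.0 CPM in ESC. Snap25, 1 of these 8, is also among the 25. The part of neurons among the NPC was not tested. The 2 H3K27me3 libraries of NPC differed most of all replicate pairs, with a chi-square per degree of freedom of 6.67 over windows. The 2 JARID2 libraries of NPC differed by no more than the sampling noise (0.998) and were counted as 1 sample. The JARID2 pair of ESC (1.023) and the SUZ12 pair of NPC (1.025) were close to that noise too, and were kept as 2 samples each.

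The 300 bases around the start site (250 before and 50 from it) are printed for 6 of these promoters, from RefSeq's GRCm38.p6, read 5′ to 3′ on the gene's strand with each CpG in capitals. They show the range of CpG content among the promoters. Ddr1 had the highest H3K4me3 in NPC, Elavl4 the largest ratio to ESC, and Maml2 the highest H3K27me3 in ESC. Of the 12 promoters of the set with a sequence, Ypel4 had the lowest CpG count relative to that expected from its bases, and Pcdh18 and Zfp94 had the highest. The positions are Ddr1 chr17:35704090-35704389 (minus strand), Elavl4 chr4:110286785-110287084 (minus strand), Maml2 chr9:13297708-13298007 (plus strand), Ypel4 chr2:84733954-84734253 (plus strand), Pcdh18 chr3:49757267-49757566 (minus strand) and Zfp94 chr7:24316617-24316916 (minus strand), each reaching from upstream sequence into the start of the gene's first exon.
Ddr1: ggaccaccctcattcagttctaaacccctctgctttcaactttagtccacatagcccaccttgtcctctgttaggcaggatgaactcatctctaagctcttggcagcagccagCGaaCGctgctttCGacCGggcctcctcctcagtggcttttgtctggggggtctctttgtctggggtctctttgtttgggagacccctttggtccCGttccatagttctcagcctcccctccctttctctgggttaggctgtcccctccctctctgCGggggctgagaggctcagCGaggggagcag
Elavl4: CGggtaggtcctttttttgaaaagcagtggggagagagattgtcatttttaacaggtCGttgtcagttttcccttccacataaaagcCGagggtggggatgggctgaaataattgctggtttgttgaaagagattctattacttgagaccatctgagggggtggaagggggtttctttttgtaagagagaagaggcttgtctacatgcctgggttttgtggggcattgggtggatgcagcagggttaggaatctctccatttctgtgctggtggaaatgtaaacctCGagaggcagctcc
Maml2: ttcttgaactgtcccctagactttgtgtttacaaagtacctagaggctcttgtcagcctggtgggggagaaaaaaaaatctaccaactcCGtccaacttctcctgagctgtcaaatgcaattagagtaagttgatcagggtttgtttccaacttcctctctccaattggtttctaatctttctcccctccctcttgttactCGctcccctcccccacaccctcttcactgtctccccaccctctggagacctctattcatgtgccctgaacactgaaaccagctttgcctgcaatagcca
Ypel4: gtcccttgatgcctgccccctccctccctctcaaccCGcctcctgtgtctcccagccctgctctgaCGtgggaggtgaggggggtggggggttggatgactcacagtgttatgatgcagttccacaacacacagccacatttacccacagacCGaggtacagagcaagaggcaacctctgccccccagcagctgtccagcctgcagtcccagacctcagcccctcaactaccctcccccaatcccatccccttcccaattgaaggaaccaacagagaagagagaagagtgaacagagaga
Pcdh18: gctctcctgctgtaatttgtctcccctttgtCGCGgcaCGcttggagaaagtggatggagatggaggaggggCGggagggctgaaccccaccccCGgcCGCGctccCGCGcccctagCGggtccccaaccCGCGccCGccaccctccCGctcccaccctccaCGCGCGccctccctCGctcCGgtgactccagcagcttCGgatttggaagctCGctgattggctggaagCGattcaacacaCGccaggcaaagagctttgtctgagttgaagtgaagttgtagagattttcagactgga
Zfp94: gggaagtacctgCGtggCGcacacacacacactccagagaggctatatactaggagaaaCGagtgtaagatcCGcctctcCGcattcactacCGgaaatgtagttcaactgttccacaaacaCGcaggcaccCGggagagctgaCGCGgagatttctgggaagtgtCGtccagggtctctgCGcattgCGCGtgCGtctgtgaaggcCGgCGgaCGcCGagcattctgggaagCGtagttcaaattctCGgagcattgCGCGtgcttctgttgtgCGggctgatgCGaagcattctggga

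By CpG content these promoters were poor, apart from 2. A RefSeq promoter lay within 10 bp of the window's start site for 12 of the 25, and for 16053 (65.6%) of all windows, so the sequence values describe those 12 and are void as a check of all 25. The CpG count observed over that expected from the base composition had a median of 0.358 for the 12, and 9 of them (75.0%, exact 95% interval 42.8% to 94.5%) lay below 0.4. Of all promoters matched, 40.9% lay below 0.4 and the median was 0.551. Pcdh18, with 23 CpGs and 0.778, and Zfp94, with 25 and 1.05, stood in the CpG-rich range, while Ypel4 had 3 CpGs (0.120) and Maml2 had 2 (0.130). Set beside other windows with low SUZ12 in ESC, the 12 lay between those with low H3K4me3 in both cell types (median 0.179 over 6171 promoters) and those with at least 40 CPM in all 4 libraries (0.840 over 4683). The promoters that gained H3K4me3 by the same cut-offs but had at least 60 CPM of SUZ12 in both ESC libraries had a median of 0.672, with 1 of 9 below 0.4. The differences between these groups were not tested.

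**Figure D1:**
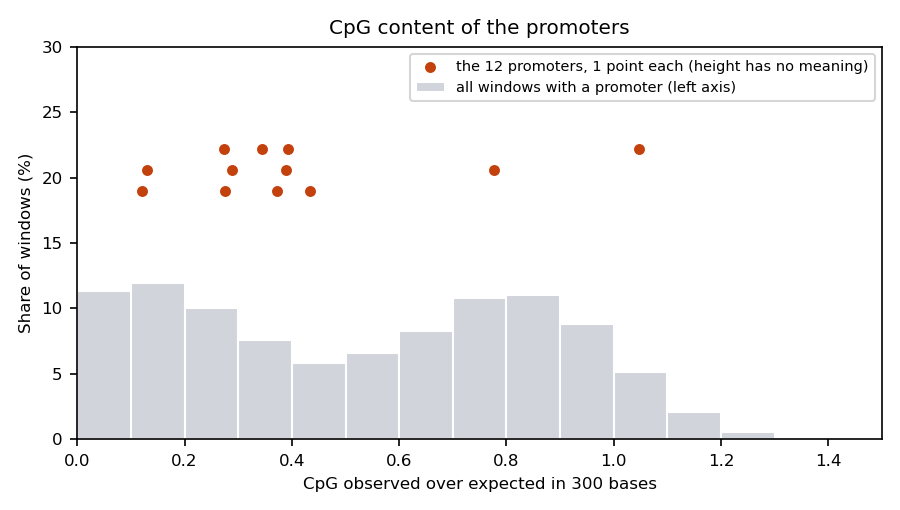
Observed over expected CpG in 300 bases (x axis) for the 12 promoters with a RefSeq match (points, whose height has no meaning) above the distribution over all 16053 matched windows (bars, share of windows in percent). The other points lie below 0.45, from the hump of CpG-poor promoters (Ypel4 at 0.120 and Maml2 at 0.130) into the dip before that of CpG-rich ones, and 2 lie to the right at 0.778 (Pcdh18) and 1.05 (Zfp94).

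Short motifs were searched in the same 12 sequences on both strands. The E-box CAGCTG, bound by basic helix-loop-helix factors, was in 4 (Csrnp3, Gng2, Trim2 and Ypel4) and in 15.8% of all matched promoters, and CAGATG, another E-box, was in Elavl4 alone and in 14.8% of all. The CCAAT box was in 7 of the 12 against 39.2% of all, and GGGCGG, the box of SP and KLF factors, in 2 (Adarb2 and Pcdh18) against 45.3%. TATAAA was in none and in 13.6% of all. GGACAGC, the right part of the REST site, was in Ddr1 and Ypel4 and in 7.07% of all, and GGGTGGTC, which GLI factors bind, was in Ddr1 and in 0.766% of all. None of the 12 held the letters searched for ETS factors (CCGGAAG, in 11.5% of all), SOX factors (ACAATGG, 3.22%), the octamer (ATGCAAAT, 1.78%), the NRF1 palindrome (1.28%), the left part of the REST site (TTCAGCACC, 0.399%) or the palindromic NFI site (0.0249%), most of which are rare in all promoters. These are letter matches only.

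The genes were long. Their median length in the RefSeq table was 117613 bp, against 15147 bp over the 23499 windows with a length, and 15 of the 25 exceeded 100 kb, against 10.2% of those windows. Lsamp (2197426 bp), Dcc (1097616 bp) and Sox5 (953863 bp) were the longest, and Ccdc28b (4635 bp) and Ypel4 (4645 bp) the shortest. Among the 16 promoters with the same gain and high SUZ12, 2 genes exceeded 100 kb. Of the 25 genes, 22 are protein-coding and 3 are long noncoding RNAs, and they lie on 14 chromosomes with no pair closer than 15196935 bp. For 9 genes the promoter table lists a further start outside the window, so the values are those of the start counted. Examples are Maml2, whose other start lies 364502 bp downstream, and Ddr1, with one 3549 bp downstream. The window of Ccdc28b alone overlaps another, that of Iqcc, where H3K4me3 was 47.2 and 51.2 CPM in NPC and 39.9 and 34.0 CPM in ESC.

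The H3K4me3 gain itself spanned a wide range among the 25. The ratio of the mean CPM in NPC to that in ESC ran from 3.78 at Trim2 to 27.9 at Elavl4, with a median of 7.47, and 9 promoters had a ratio of at least 10. The median level over the promoters was 58.5 and 64.0 CPM in the NPC libraries and 9.02 and 8.28 CPM in the ESC libraries. Windows with at least 40 CPM in all 4 libraries and low SUZ12 had medians of 82.1 and 84.0 CPM in NPC, so most of the 25 reached a level below that of a typical constantly marked promoter.

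Among genes of neuronal RNA and noncoding RNA, Elavl4, which encodes the neuronal RNA-binding protein HuD, had 75.4 and 91.9 CPM of H3K4me3 in NPC and 2.69 and 3.31 CPM in ESC. Mir124-2hg, the host of a miR-124 gene, a microRNA of neurons, had 100.5 and 107 CPM in NPC and 8.07 and 4.69 CPM in ESC. Its levels in NPC were the second highest of the 25. Mir99ahg, host of the miR-99a cluster, had 63.7 and 64.0 CPM in NPC and 7.59 and 4.97 CPM in ESC. Sox2ot, a noncoding RNA whose locus holds Sox2, had 46.9 and 57.0 CPM in NPC and 4.43 and 5.25 CPM in ESC. Adarb2, a brain homologue of the RNA-editing enzymes, was the lowest in NPC, at 43.2 and 41.3 CPM, with 10.6 and 10.5 CPM in ESC.

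Genes of the synapse, vesicles and signalling were lower than Elavl4 in NPC. Snap25, a membrane fusion protein of the synapse, had 53.0 and 50.4 CPM in NPC and 4.27 and 4.97 CPM in ESC. Nsg2, a vesicle trafficking protein of neurons, had 58.5 and 54.8 CPM in NPC and 7.44 and 7.73 CPM in ESC. Gng2, a gamma subunit of heterotrimeric G proteins, had 65.6 and 72.0 CPM in NPC and 13.0 and 11.3 CPM in ESC. Trim2, a ubiquitin ligase of neurons, had 49.3 and 48.5 CPM in NPC and 14.9 and 11.0 CPM in ESC, the smallest ratio of the 25.

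Receptors, adhesion molecules and matrix genes held the highest level. Ddr1, a collagen receptor kinase, had 154 and 164 CPM in NPC and 9.18 and 8.28 CPM in ESC, at the 98.1 and 98.3 percentile of all windows in the NPC libraries. Pcdh18, a protocadherin, had 96.5 and 101 CPM in NPC and 14.6 and 12.4 CPM in ESC. Frem1, a basement membrane protein, had 73.8 and 77.7 CPM in NPC and 6.33 and 4.97 CPM in ESC. The remaining genes of this kind were lower: Lsamp, a neuronal adhesion protein, had 63.1 and 60.9 CPM in NPC and 8.86 and 7.73 CPM in ESC, and Dcc, the netrin receptor of growing axons, had 46.3 and 46.5 CPM in NPC and 7.59 and 8.28 CPM in ESC. Adamts6, a secreted metalloprotease, had 57.6 and 67.9 CPM in NPC and 5.70 and 4.69 CPM in ESC, and Plat, the tissue plasminogen activator, had 44.4 and 50.6 CPM in NPC and 9.49 and 9.66 CPM in ESC.

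Regulators of transcription were also present. Maml2, a coactivator of Notch, had 87.0 and 93.5 CPM in NPC and 12.3 and 10.2 CPM in ESC, and Vgll4, a cofactor of TEAD factors, had 66.5 and 71.3 CPM in NPC and 5.06 and 7.46 CPM in ESC. Sox5, a SoxD factor, had 57.3 and 55.9 CPM in NPC and 11.5 and 8.28 CPM in ESC. Tshz2 and Zfp94, both zinc finger genes, and Csrnp3, a nuclear factor, ranged from 43.3 to 66.0 CPM in NPC and from 9.02 to 13.4 CPM in ESC. The other genes were Abcd2, a peroxisomal transporter of long-chain fatty acids, Ccdc28b, which is linked to cilia, and Ypel4 of the yippee family, with 44.1 to 76.4 CPM in NPC and 6.08 to 13.8 CPM in ESC.

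**Figure D2:**
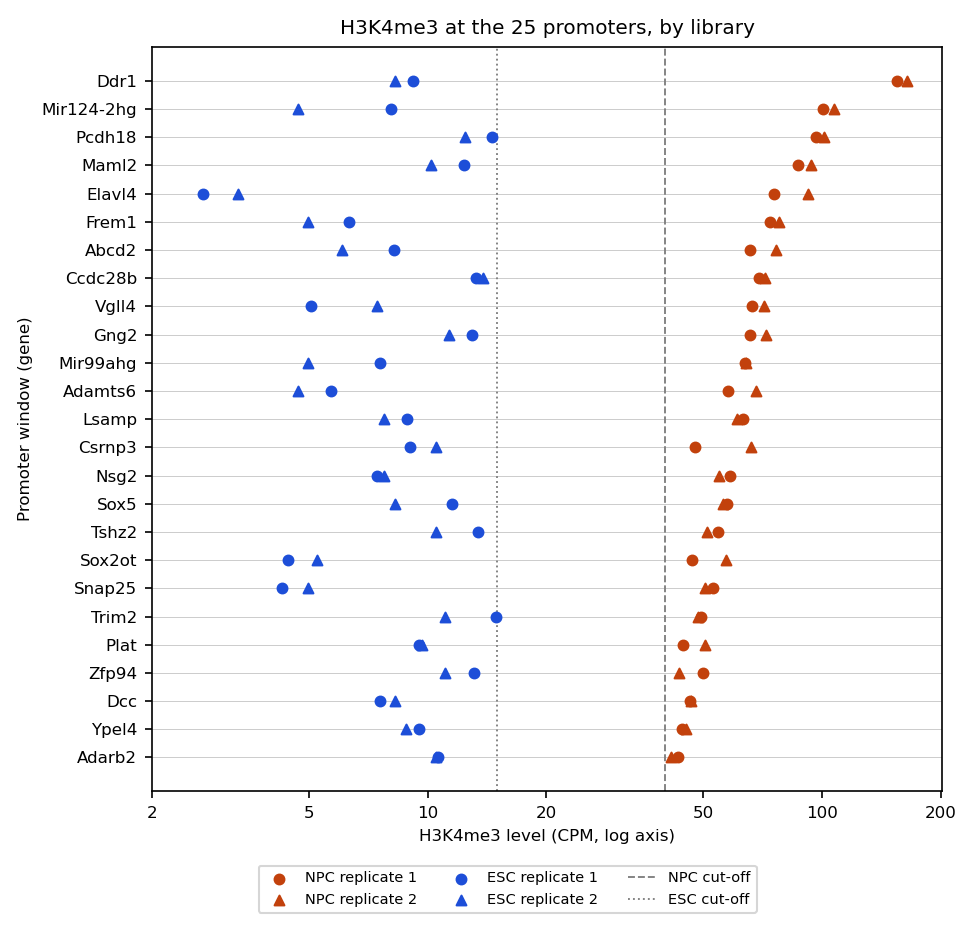
H3K4me3 level in CPM (log axis) of the 25 promoters, 1 row each, with NPC libraries in orange and ESC libraries in blue (circles replicate 1, triangles replicate 2) and the cut-offs of 40 CPM (dashed) and 15 CPM (dotted) that chose them. Ddr1 stands highest in NPC at 154 and 164 CPM, and Elavl4 lowest in ESC at 2.69 and 3.31 CPM.

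Several promoters lay close to a cut-off. Just inside the ESC limit of H3K4me3 were Trim2 (14.9 CPM in its higher library), Pcdh18 (14.6) and Ccdc28b (13.8), and just outside were Gpx8 (15.03), Inpp5f (15.3) and Fam181a (15.3). Just inside the NPC limit were Adarb2 (41.3 CPM in its lower library), Zfp94 (43.3) and Ypel4 (44.1), and just outside were Il15ra (39.8), 3110070M22Rik (39.2) and Rufy3 (38.9). On SUZ12 in ESC, Maml2 (57.1 CPM in its higher library), Tshz2 (55.5) and Frem1 (55.5) were just inside, and Zfp334 (61.1), Slitrk3 (66.6) and Dbn1 (70.0) just outside. By the H3K4me3 limits alone 43 windows gained the mark, so 25 of 43 met the SUZ12 limit, 16 had at least 60 CPM in both ESC libraries and 2 (Dbn1 and Zfp334) in 1 of them.

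H3K27me3, which the choice of promoters did not use, was lower in NPC at many of the 25. It fell at 16 of 25 (64.0%; edgeR, adjusted p below 0.05), while 23.5% of the 21863 windows tested fell. DESeq2 called fewer, 9 of the 25 and 8.90% of all windows. None of the 25 rose, by edgeR or DESeq2 or at an unadjusted p below 0.05, and 22.9% of all windows did by edgeR. Rises were also rare among windows with low H3K4me3 in both cell types and low SUZ12 (4.62% by edgeR). Of the 5010 windows that rose, 3138 had at least 40 CPM of H3K4me3 in both cell types and low SUZ12. Among all windows of that kind, 2.67% passed over IgG in NPC. The median level over the promoters was 23.3 and 19.1 CPM in the NPC libraries and 53.9 and 64.9 CPM in the ESC libraries, against 26.6 and 14.7 CPM in NPC and 19.7 and 21.6 CPM in ESC over all windows. At 21 of the 25 both NPC libraries lay below both ESC libraries, as at 34.1% of all windows. The median log2 fold was -1.07 for the 25 and 0.12 for all windows tested.

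The fall was deepest at genes of several roles. Frem1 (window chr4:83049668-83054667) had 20.0 and 17.8 CPM of H3K27me3 in NPC and 109 and 105 CPM in ESC, a log2 fold of -2.28 ± 0.40 (SE, adjusted p = 3.55e-07). Maml2 (chr9:13295458-13300457) had 26.6 and 29.9 CPM in NPC and 156 and 168 CPM in ESC, with a log2 fold of -2.26 ± 0.52 (adjusted p = 0.000112). In ESC it stood at the 95.1 and 96.8 percentile of all windows, and in NPC at the 50.3 and 80.1 percentile. Snap25 (chr2:136710950-136715949) had 18.8 and 16.6 CPM in NPC and 69.4 and 83.4 CPM in ESC, with a log2 fold of -1.88 ± 0.33 (adjusted p = 7.25e-07). Lsamp (chr16:41530842-41535841) had 23.3 and 22.9 CPM in NPC and 105 and 91.1 CPM in ESC, with a log2 fold of -1.86 ± 0.38 (adjusted p = 1.68e-05). At these 4 promoters the libraries of the 2 cell types lay far apart relative to the gap between replicates.

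Sox5 had 23.3 and 14.0 CPM of H3K27me3 in NPC and 75.6 and 66.4 CPM in ESC (log2 fold -1.79 ± 0.33, adjusted p = 1.5e-06). Pcdh18, one of the CpG-rich promoters, had 33.3 and 27.4 CPM in NPC and 115 and 108 CPM in ESC (log2 fold -1.68 ± 0.41, adjusted p = 0.000315). Plat (log2 fold -1.49) and Abcd2 (-1.42) fell as well. The other 8 that fell were Tshz2, Adarb2, Mir124-2hg, Elavl4, Ddr1, Zfp94, Vgll4 and Mir99ahg, with log2 folds of -1.39 to -0.89. Among the promoters that fell, Vgll4, Ddr1, Elavl4 and Zfp94 were not called above IgG in ESC. Their log2 folds over IgG there were -0.11, 0.60, 0.89 and 0.93, so a mark above background in ESC was not shown for them. Ddr1, with the highest H3K4me3 in NPC, had 24.4 and 24.2 CPM of H3K27me3 in NPC and 52.8 and 69.5 CPM in ESC.

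For 9 promoters no change of H3K27me3 was called. Csrnp3 had 20.0 and 14.7 CPM in NPC and 19.7 and 18.5 CPM in ESC, Sox2ot had 22.2 and 14.7 CPM in NPC and 25.9 and 23.2 CPM in ESC, and Ccdc28b had 23.3 and 13.4 CPM in NPC and 12.4 and 13.9 CPM in ESC. These promoters were near the all-window median in both cell types. Dcc was different, with 39.9 and 70.7 CPM in NPC and 109 and 92.6 CPM in ESC, and its log2 fold of -0.55 ± 0.45 did not pass (adjusted p = 0.305). Adamts6, Gng2, Nsg2, Trim2 and Ypel4 had log2 folds of -0.59 to -0.01.

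**Figure D3:**
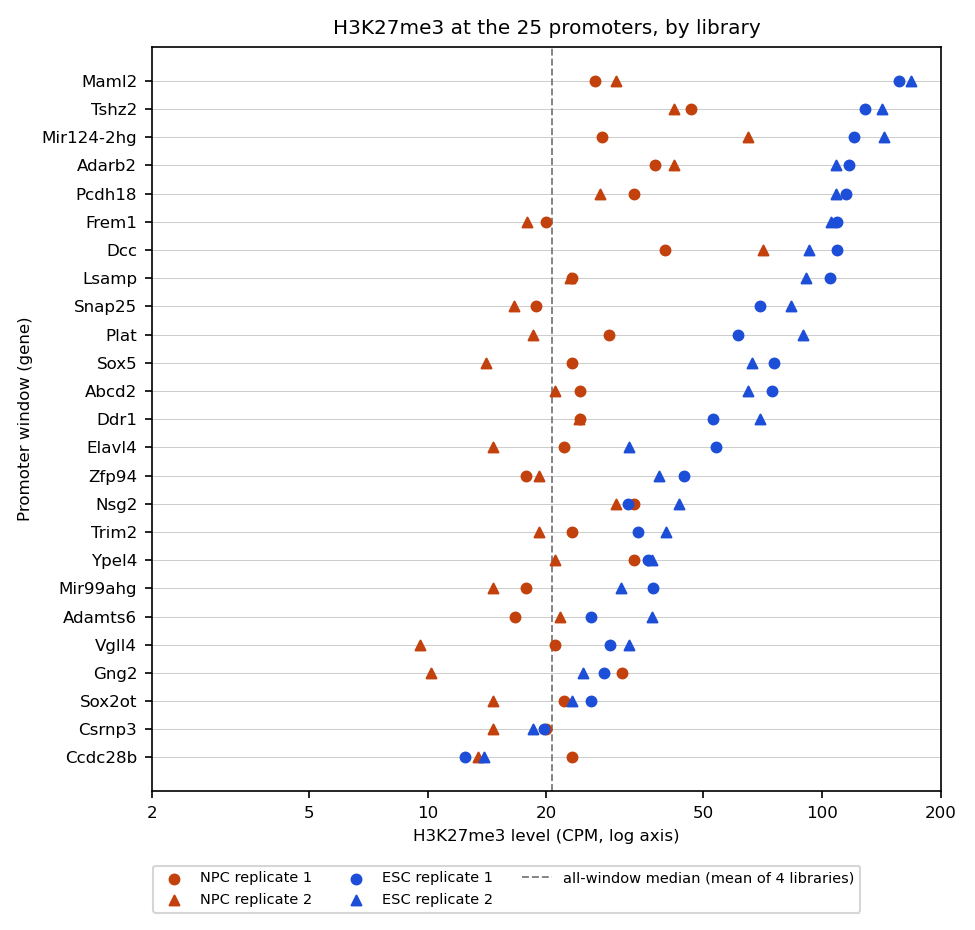
H3K27me3 level in CPM (log axis) of the 25 promoters, ordered by the ESC mean, with NPC libraries in orange and ESC libraries in blue (circles replicate 1, triangles replicate 2). The dashed line is the all-window median averaged over the 4 libraries, and the ESC points run from Maml2 at 156 and 168 CPM to Ccdc28b at 12.4 and 13.9 CPM.

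**Figure D4:**
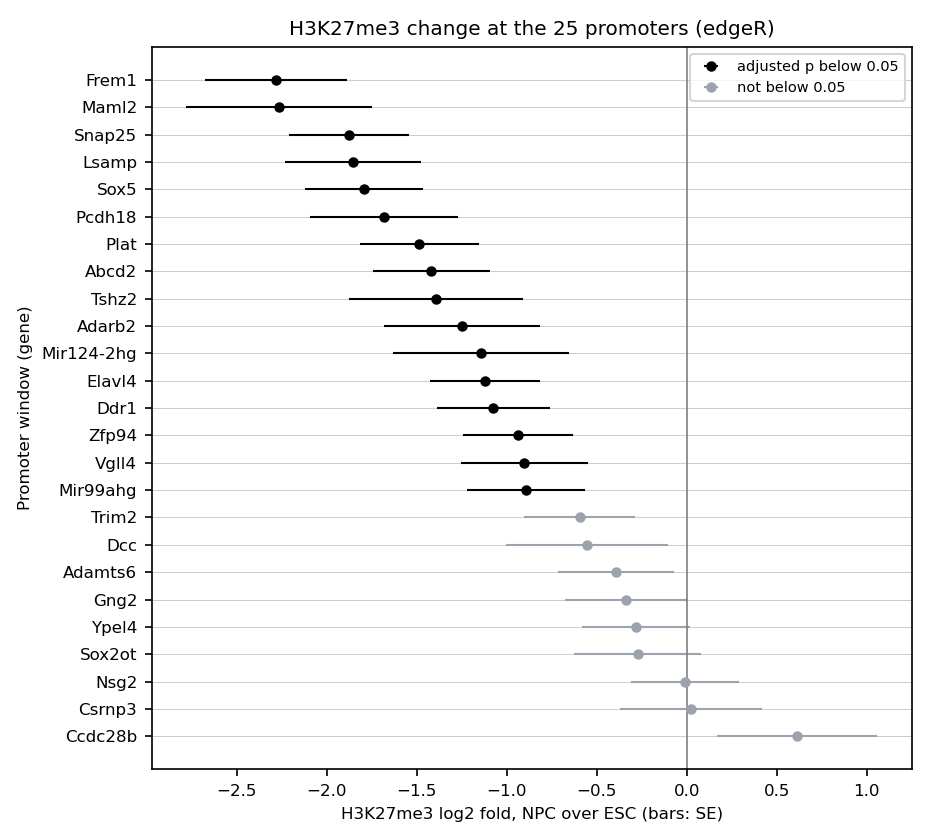
Log2 fold of H3K27me3, NPC over ESC, with its SE for each of the 25 promoters (edgeR, 2 libraries per cell type). Black points are the 16 with an adjusted p below 0.05, all to the left of 0, and grey points the 9 others, from Trim2 at -0.59 to Ccdc28b at 0.61.

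How many of the 25 fell depended on the scaling and on 1 library. With TMM factors taken from background windows 8 fell (11.5% of all windows), with factors from windows with H3K4me3 in both cell types 24 fell (45.7%), and without ESC replicate 1 there were 7 (9.86%). The median of all windows moved between -0.86 and 0.56 under the 4 scalings, and the median of the 25 was 1.18 to 1.22 below it on the log2 scale under those. It was 0.96 below it without NPC replicate 1 and 1.62 below it without NPC replicate 2, and 0.63 below it at a minimum count of 30, where 18 of the 25 were tested. Lower H3K27me3 was common where H3K4me3 stayed low, too. Of the windows with low H3K4me3 in both cell types and low SUZ12, 3855 of 7984 fell (48.3%) and 369 rose (4.62%), with a median log2 fold of -0.80. Of the windows with H3K4me3 in both and low SUZ12, 1.21% fell and 51.3% rose. H3K27me3 medians at those windows were 8.28 and 12.4 CPM in ESC and 25.5 and 14.0 CPM in NPC. Their IgG medians were 40.2 CPM in ESC and 44.9 CPM in NPC. Only 2.67% of them passed over IgG in NPC, so most of those rises were at levels not called above background. Of the 16 promoters with the same gain and high SUZ12, 4 fell (25.0%) and 0 rose.

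Against IgG, 14 of the 25 had H3K27me3 above background in ESC (log2 fold of at least 1, adjusted p below 0.05), and 22.5% of all 23836 windows did. In NPC it was 3 of the 25 (Adarb2, Dcc and Mir124-2hg), and 15.1% of all windows. Mir124-2hg had the largest excess, with a log2 fold over IgG of 2.08 ± 0.48 in NPC and 3.08 ± 0.57 in ESC. Other antibodies had positive log2 folds over IgG at Mir124-2hg too, without a call. In NPC they were 0.95 for SUZ12, 1.02 for JARID2 and 0.62 for MTF2, and in ESC 1.20 for JARID2 and 1.35 for MTF2. The part of the IgG level in this excess was not tested. None of the 3 passed in NPC without NPC replicate 2, or in a fit of the antibody and IgG alone. Each cell type had 1 IgG library, assumed to vary like the other groups, with 2 counts (Adamts6, one of the 14) to 19 counts per promoter in ESC. At 16 promoters with the same gain and high SUZ12, H3K27me3 had medians of 78.1 and 114 CPM in NPC and 177 and 164 CPM in ESC, so the low-SUZ12 promoters had the lower medians in both cell types. That difference was not tested.

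The PRC2 subunits had levels near those of all windows. SUZ12 had medians of 40.8 and 35.7 CPM in NPC, against 38.6 and 37.9 CPM over all windows. In ESC, where the choice kept SUZ12 below 60 CPM, the medians were 33.8 and 29.6 CPM, against 29.1 and 31.5 CPM over all windows. In NPC, where SUZ12 was not used in the choice, none of the 25 passed over IgG (0 also at an unadjusted p below 0.05 with the same fold and in a fit of SUZ12 and IgG alone), and in the edgeR fit of all 22 libraries neither did any other window (0 of 23836). The fit of SUZ12 and IgG alone passed 363 windows. JARID2 changed at none of the 25 by edgeR (0.769% of the 22633 windows fell and 0.0839% rose) or by DESeq2. At an unadjusted p below 0.05, 1 was lower in NPC and 2 were higher. JARID2 passed over IgG at none of the 25 in NPC or in ESC, and at 0 of 23836 windows by edgeR. At an unadjusted p below 0.05 and the same fold it was 0 of the 25 in NPC and 1 (Adamts6) in ESC, and in a fit of JARID2 and IgG alone 0, where 41 windows passed in NPC and 188 in ESC. With 1 IgG library the fit of all libraries passed JARID2 nowhere, also not at Hoxb3 in ESC (216 and 236 CPM of JARID2 and 33.5 CPM of IgG), so its count of 0 does not show that SUZ12 or JARID2 was absent from the 25.

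MTF2 changed at a few promoters, and the balance of falls and rises turned with the scaling. It fell at 4 of the 25, with 8.89% of the 20885 windows tested falling, and rose at 1. Scaled by library totals, where the median log2 fold of all windows was 0.35 in place of 0.07, it fell at 1 (6.89% of all) and rose at 4 (10.1%), and by DESeq2 it fell at 1 (6.46%) and rose at none (0.0206%). Dcc had 29.6 and 40.6 CPM of MTF2 in NPC and 78.1 and 54.3 CPM in ESC, a log2 fold of -1.23 ± 0.33 (SE, adjusted p = 0.0059). Frem1 (-1.15 ± 0.33), Maml2 (-0.98 ± 0.32) and Pcdh18 (-0.90 ± 0.32) fell too. All 4 had at least 92.6 CPM of H3K27me3 in both ESC libraries, a level that is the lower ESC value of Dcc and was read from these data. Tshz2, Mir124-2hg and Adarb2 reached it too, and no MTF2 change was called there. Lsamp, just under it in 1 ESC library, had no MTF2 change called either (log2 fold 0.28). MTF2 rose at Mir99ahg (3.28% of all windows rose), which had 43.2 and 46.4 CPM in NPC and 12.0 and 12.5 CPM in ESC, a log2 fold of 1.58 ± 0.42 (adjusted p = 0.00575). Over IgG, MTF2 passed at Dcc in ESC (log2 fold 1.97 ± 0.60, adjusted p = 0.024, 9.10% of all windows). At an unadjusted p below 0.05 and the same fold, 4 passed in ESC (Adamts6, Dcc, Mir124-2hg and Pcdh18). MTF2 passed at none of the 25 in NPC (0 of 23836 windows by edgeR), where none passed at an unadjusted p below 0.05 either. No MTF2 change was called without ESC replicate 1 or without NPC replicate 1, and 2 falls and no rise without NPC replicate 2.

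**Figure D5:**
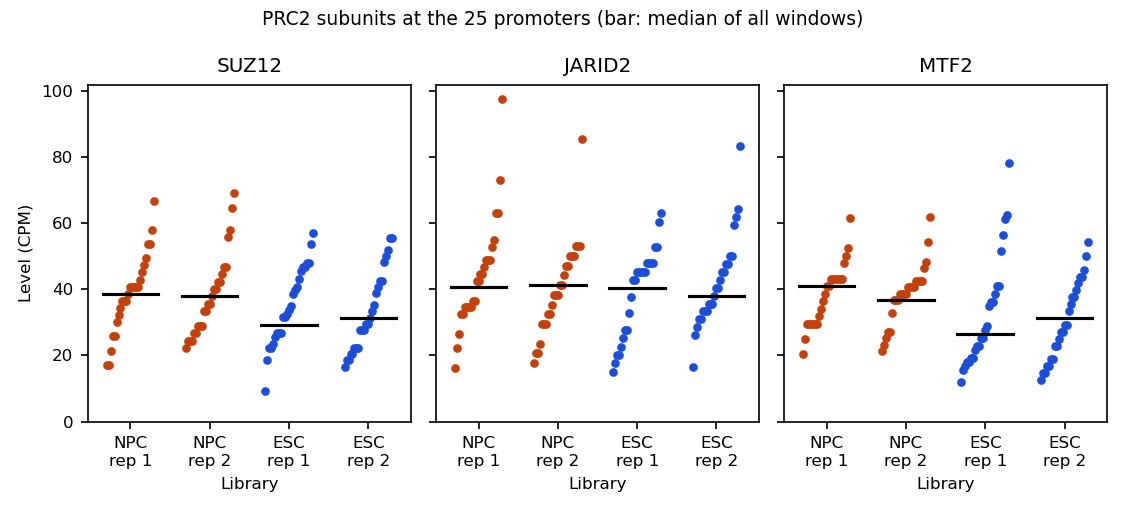
Levels in CPM of SUZ12, JARID2 and MTF2 at the 25 promoters (points, sorted within each library), with NPC libraries to the left of ESC libraries and the median of all 24467 windows as a bar. The points surround the all-window median in every library, and the SUZ12 points of ESC end below 60 CPM because the promoters were chosen so.

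Some of the 25 stood in gene lists of neural development. The share to set beside each list is 25 of all 24467 windows, and no list was tested against it. Of 30 neuronal differentiation genes 2 were among the 25 (Elavl4 and Nsg2), and of 26 synapse and vesicle genes 1 (Snap25). Of 33 cell adhesion and axon guidance genes 2 were (Dcc and Lsamp), and of 23 REST target genes 1 (Snap25). REST represses neuronal genes in non-neuronal cells. Lists of radial glia and neural progenitors (24 genes), glia (18), Hedgehog response (17), extracellular matrix (24) and interferon response (14) held none. H3K4me3 of at least 15 CPM in an ESC library was found at 58.5% of all windows, and at 20 of the 30 neuronal differentiation genes, 16 of the 26 synapse genes, 23 of the 33 adhesion and guidance genes and 18 of the 24 progenitor genes. Over all windows tested, H3K27me3 fell at 23.5% and rose at 22.9%, with a median log2 fold of 0.12. It fell at 8 and rose at 7 of the 30 neuronal differentiation genes (median 0.21), shares near those of all windows. It fell at 7 and rose at 1 of the 33 adhesion and guidance genes (-0.55), and fell at 5 and rose at 2 of the 25 synapse genes tested (-0.49). Falls and rises numbered 8 and 2 among 24 extracellular matrix genes (-0.68), 7 and 3 among 23 REST targets (-0.28), and 5 and 3 among 24 progenitor genes (-0.21). They numbered 5 and 5 among 17 glial genes tested (-0.26), 1 and 4 among 17 Hedgehog response genes (0.28), and 2 and 0 among 14 interferon response genes (-0.40).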

How the data were processed

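The deposited values are raw counts of reads per 5000 bp window around 1 start site per gene, not normalized, in 22 CUT&RUN libraries. Bowtie2 2.3.4.3, Picard 2.19 and the build mm10 (GRCm38) are named, without roles, per the submitters' processing notes. How reads were filtered, deduplicated and counted is not given in the sources used here. The Drosophila spike-in was not used here, and a shift of all windows at once could not be seen. PCR copies inflate counting precision, and 3 counts equal 0.356 to 10.05 CPM by library.

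CPM was the count over the column total. The authors' counts were fitted with edgeR 4.0.16 (R 4.3.3) quasi-likelihood tests, TMM scaling, filterByExpr at a minimum count of 10 and Benjamini-Hochberg adjustment over all windows tested, called below 0.05. All 25 promoters passed the filter for H3K27me3, JARID2 and MTF2. Each antibody's libraries were fitted alone, and levels over IgG in 1 fit of the 22 libraries. P-values for H3K27me3 and MTF2 between cell types measure the spread between 2 libraries per group. The 2 NPC JARID2 libraries were summed, so the JARID2 p-values between cell types rest on the spread of the 2 ESC libraries. Tests over IgG had 1 IgG library per cell type and took its spread from the other groups. SEs are those of the fit. The fits were also run on simulated counts, drawn with 1 spread for all windows and libraries. That setting leaves out the wide gap between the 2 NPC libraries of H3K27me3, so it cannot show how the fits behave there. Deposited starts were moved by 1 to be 1-based. Genes were described by a rule on their level, change, test or list, with the remaining members given for completeness. Mir124-2hg and Mir99ahg, which that rule leaves out, were named after their values were seen. The members, lists and rule were chosen with earlier results of these data known. Replicate numbers were not treated as pairs in the main fits. Deviations of same-numbered libraries correlated at -0.02 for H3K4me3, -0.19 for H3K27me3, -0.0015 for SUZ12, 0.01 for JARID2 and -0.17 for MTF2. These values cannot settle whether same-numbered libraries were made together.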

Additional observations from a re-analysis of the deposited data

How the results depend on the processing

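The number of promoters that met the limits was 25. It was 69 with an NPC limit of 30 CPM and 12 with 60, 15 with an ESC limit of 10 CPM and 53 with 20, 15 with a SUZ12 limit of 40 CPM and 43 with no SUZ12 limit. With 1 replicate alone it was 33 to 46, and with TMM-scaled CPM 24. Of the 25, the count with lower H3K27me3 in NPC was 16. The share of all windows called lower moved too, and is given in brackets beside each count; it was 23.5% beside the 16. It was 8 (11.5%, and 1 higher, Ccdc28b) with factors from background windows, 9 (8.90%) with DESeq2 1.42.0, 10 (20.6%) at a minimum count of 30, where 18 promoters were tested, and 7 to 15 (9.86% to 24.5%) with a library left out. It was 24 (45.7%) with factors from windows with H3K4me3 in both cell types, a scaling chosen after seeing the data. With a replicate block it was 13 (19.6%; Adarb2, Mir124-2hg and Tshz2 lost), and with crossed numbers, also added later, 16 (25.2%). All 16 kept a negative fold under the settings run, and 7 of them (Abcd2, Frem1, Lsamp, Maml2, Plat, Snap25 and Sox5) passed under each. The rise of Ccdc28b came with background factors, where the median log2 fold of all windows was 0.56. H3K27me3 at Ccdc28b was not above IgG in ESC (log2 fold -1.42) or in NPC (-0.65).

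The counts for MTF2 were 4 lower (8.89% of all windows) and 1 higher (3.28%). They were 1 (6.89%) and 4 (10.1%) with library totals, and 1 (6.46%) and 0 (0.0206%) with DESeq2. At a minimum count of 30 none of the promoters was tested, so both counts were 0. They were 0 (1.70%) and 1 (0.728%) under the replicate block, and 4 (14.8%) and 2 (4.74%) under the crossed one. A library left out gave 0 to 4 lower (0.370% to 9.08%) and 0 to 1 higher (0.0891% to 2.58%). H3K27me3 over IgG in NPC passed at 1 promoter in place of 3 at a log2 fold of 2 or with library totals, at 0 in a fit of the antibody and IgG only, and at 0 to 3 with a library left out; in ESC it passed at 7 in place of 14 at a log2 fold of 2. MTF2 over IgG in ESC passed at 0 in place of 1 at a log2 fold of 2 or with library totals, and at 0 to 2 with a library left out. JARID2 gave 0 throughout. The share of promoters with CpG below 0.4 stayed at 75.0%, or 72.7% where the promoter lay at the exact base.

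Promoters with no H3K27me3 call changed sign in places. Csrnp3 had a log2 fold of -0.16 with library totals, -0.11 with DESeq2, -0.052 with no filter, -0.96 with factors from windows with H3K4me3 in both cell types, and -0.20 to 0.12 with a library left out. With those factors Ccdc28b had -0.37. With background factors Adamts6 had 0.048, Gng2 0.087, Nsg2 0.43, Sox2ot 0.16 and Ypel4 0.15. At a minimum count of 30 Dcc had 0.061, Nsg2 0.63, Trim2 0.050 and Ypel4 0.39. Nsg2 had 0.11 in 1 fit over all libraries, 0.14 over windows that overlap no other and -0.40 to 0.22 with a library left out, and Adamts6 had -1.12 to 0.023 with a library left out. The cause was not tested. The 25 had 15 to 111 counts of H3K27me3 per NPC library.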

Other observations

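Across the 25 promoters the size of the H3K4me3 gain and the change of H3K27me3 ran little together: Spearman's rho of the log2 ratios of mean CPM was -0.22 (n = 25), and that of the H3K4me3 gain with the ESC level of H3K27me3 was 0.04. The change of H3K27me3 went with its level in ESC (rho -0.82), and these share the ESC values. The promoters share their libraries, and these values are a description. The limits that chose the promoters also bounded the H3K4me3 gain from below. A weak rho among the 25 therefore cannot show that the 2 changes are unrelated. Elavl4 and Sox2ot had similar H3K27me3 in NPC (22.2 and 14.7 CPM in each of the genes) and H3K4me3 of 46.9 to 91.9 CPM, but H3K27me3 in ESC was 53.9 and 32.4 CPM at Elavl4 and 25.9 and 23.2 CPM at Sox2ot. Dcc and Mir124-2hg had the most H3K27me3 in the deeper NPC library (70.7 and 65.0 CPM) together with at least 46.3 CPM of H3K4me3 in NPC.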
